A study of Homo sapiens with 14 samples.

Results

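TC-32, an established Ewing sarcoma cell line carrying the EWSR1::FLI1 fusion, holds 821 stretches of acetylated chromatin that lay far from gene starts and had no FLI1 peak nearby. They were chosen by the deposited peak lists: H3K27ac regions of set A replicate 2 that overlapped a region of replicate 1, lay over 5 kb from every protein-coding transcript start of GENCODE release 44 and had no region of any of the 4 FLI1 lists within 1 kb. The 821 regions were 27.5% of the 2990 reproducible distal H3K27ac regions and came from 17366 H3K27ac regions of replicate 2 in all. Their H3K27ac, their distance from starts and the absence of FLI1 therefore come from the choice and are no findings. More than 1 of the chosen regions can overlap the same replicate 1 region, and those then carry the same replicate 1 values. Counts, shares and intervals below take each chosen region singly. The series set binding by the fusion against marks of active and of repressed chromatin.

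The data are 14 CUT&RUN libraries of wild-type, untreated TC-32 cells, so every sample shares 1 line and 1 condition and nothing here compares treatments. CUT&RUN tethers a nuclease to an antibody and sequences the DNA it releases. Set A holds 2 FLI1, 2 H3K27ac and 2 IgG libraries, and set B holds 2 FLI1, 2 H3K9me3, 2 H3K27me3 and 2 IgG libraries. The labels do not say what distinguishes the sets, nor whether replicates were separate cultures, and they do not describe the FLI1 antibody as specific to the fusion. The acetylated regions and the FLI1 regions of set A were called against the same IgG libraries, so these 2 kinds of list are not independent. Since the H3K27ac mark was mapped in 1 set with 2 replicates and regions of a list are not replicates, shares are given with 95% Wilson intervals, which cover counting error only, and no test was made.

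Acetylation of lysine 27 on histone H3 is laid down by the acetyltransferases p300 and CBP and marks active promoters and enhancers. EWSR1::FLI1 joins a transactivating domain to the ETS DNA-binding domain of FLI1, which reads GGAA, and in Ewing sarcoma the fusion turns runs of GGAA repeats into enhancers. Acetylated chromatin away from such sites is usually ascribed to other factors, among them AP-1, TEAD and E-box-binding proteins. The H3K27ac mark by itself does not tell an enhancer from other acetylated chromatin, and the regions are called distal H3K27ac regions below.

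The sequences under the strongest members show what such a region can hold. Each is 300 bases of hg38, plus strand, centred on the summit of replicate 2, and none overlaps an annotated exon. Capitals mark matches on either strand to the AP-1 letters TGANTCA, the ETS core CCGGAAG, the EBF letters CCCNNGGGA, the E-box CAGCTG, the SP and KLF letters GGGCGGG and the cyclic AMP response element TGACGTCA. The first 4 are the members ranked highest by fold, and the last 2 are the strongest members with the EBF letters and with the ETS core.
KIRREL1 intron, chr1:158009625-158009924: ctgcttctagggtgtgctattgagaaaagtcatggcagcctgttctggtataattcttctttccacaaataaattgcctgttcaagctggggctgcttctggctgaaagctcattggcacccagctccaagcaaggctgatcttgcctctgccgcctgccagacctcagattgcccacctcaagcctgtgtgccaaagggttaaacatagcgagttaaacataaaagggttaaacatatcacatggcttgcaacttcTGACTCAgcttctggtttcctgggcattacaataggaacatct
JAM3 intron, chr11:134120294-134120593: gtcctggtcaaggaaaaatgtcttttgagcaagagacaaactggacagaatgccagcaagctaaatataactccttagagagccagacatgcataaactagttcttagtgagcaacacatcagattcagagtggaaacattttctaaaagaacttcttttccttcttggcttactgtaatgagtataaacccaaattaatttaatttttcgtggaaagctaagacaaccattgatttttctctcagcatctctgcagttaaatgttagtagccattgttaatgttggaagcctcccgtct
Intergenic, nearest WNT7B, chr22:46045256-46045555: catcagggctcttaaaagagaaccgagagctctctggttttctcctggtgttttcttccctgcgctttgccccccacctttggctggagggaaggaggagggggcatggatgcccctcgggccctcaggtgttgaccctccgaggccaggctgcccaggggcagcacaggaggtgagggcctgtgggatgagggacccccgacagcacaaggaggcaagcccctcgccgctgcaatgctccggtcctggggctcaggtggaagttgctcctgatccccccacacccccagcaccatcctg
Intergenic, nearest WASF2, chr1:27504326-27504625: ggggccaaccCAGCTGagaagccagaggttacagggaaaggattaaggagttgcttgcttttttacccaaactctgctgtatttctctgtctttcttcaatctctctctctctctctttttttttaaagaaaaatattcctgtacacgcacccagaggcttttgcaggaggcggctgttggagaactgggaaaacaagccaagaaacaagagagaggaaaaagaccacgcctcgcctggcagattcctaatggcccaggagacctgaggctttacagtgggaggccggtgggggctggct
CIC intron, chr19:42277887-42278186: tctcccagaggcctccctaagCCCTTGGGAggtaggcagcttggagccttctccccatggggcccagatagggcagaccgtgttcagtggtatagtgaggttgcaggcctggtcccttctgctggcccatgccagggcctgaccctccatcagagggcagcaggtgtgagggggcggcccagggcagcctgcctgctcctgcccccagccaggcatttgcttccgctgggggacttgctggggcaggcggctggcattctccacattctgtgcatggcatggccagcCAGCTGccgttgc
RXRA intron, chr9:134344346-134344645: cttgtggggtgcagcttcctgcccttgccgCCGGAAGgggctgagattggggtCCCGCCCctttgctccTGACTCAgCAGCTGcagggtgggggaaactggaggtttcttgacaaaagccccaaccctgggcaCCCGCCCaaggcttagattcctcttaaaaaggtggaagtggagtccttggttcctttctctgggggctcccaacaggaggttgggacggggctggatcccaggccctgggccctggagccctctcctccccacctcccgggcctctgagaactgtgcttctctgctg

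The KIRREL1 window held 1 AP-1 match, 110 bases from the summit, and neither the JAM3 window nor the one nearest WNT7B held any of these letters. In the RXRA window the ETS core, AP-1, E-box and 2 SP and KLF matches all lay between 14 and 117 bases to one side of the summit. That ETS core stood 21.0 kb from the nearest FLI1 region. A match of letters describes the window and is not a binding site.

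The 10 strongest members, ranked by the mean percentile of their fold over the 2 replicates, lay mostly inside genes. The fold is the authors' ratio of signal to IgG at the summit, and the percentile is its rank within 1 replicate's list. First came a region of 2525 bp in an intron of KIRREL1, a nephrin-family adhesion protein, at chr1:158009129-158011653, with a fold of 9.15 in replicate 1 and 12.2 in replicate 2. Next was chr11:134119592-134121636 in an intron of JAM3, which encodes a junctional adhesion molecule, with folds of 9.26 and 10.8. Both stood near the top of both lists, but they differed in their surroundings. The KIRREL1 region had FLI1 2.38 kb away and the JAM3 region had none closer than 50.3 kb.

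The next 2 by rank lay between genes. At chr22:46045237-46046046, 68.1 kb from the start of WNT7B, which encodes a WNT ligand, the folds were 9.30 in replicate 1 and 9.59 in replicate 2. At chr1:27503805-27504890, 13.6 kb from the start of WASF2, a driver of actin branching, they were 9.06 and 8.51. The replicates of these 2 regions were close to each other, which was not the rule among the members.

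Introns held 5 others of the 10, of which 4 are of sequence found once. In PHF20, a reader of methylated histones, chr20:35870588-35871969 had folds of 7.81 and 9.26. In SIL1, a cochaperone of the endoplasmic reticulum, chr5:139178333-139179760 had folds of 7.45 and 9.25. In CIC, a transcriptional repressor, chr19:42277168-42278617 had folds of 7.27 and 8.28. The CIC region was the one of the 10 closest to FLI1, at 1036 bp. In CRIM1, which binds bone morphogenetic proteins, chr2:36366528-36368276 had folds of 7.50 and 7.57. The other 2 of the 10, near C1QTNF3 and in an intron near UPK3BL1, lay in sequence that occurs more than once in the genome and are described with the repeated sequence.

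As a group the members ranked below the other acetylated regions. Their median fold percentile was 49.0 in replicate 1 and 56.6 in replicate 2, against 60.4 and 65.0 for the 2169 distal regions with FLI1 within 1 kb and 62.4 and 66.3 for the 3712 regions within 5 kb of a start. The difference from distal regions with FLI1 was -9.90 percentile points on average, with an SD of 2.19 over the 2 replicates, which share their IgG libraries with the FLI1 lists of set A. It turned to 0.253 points among the regions with a −log10 q of at least 5 in both lists, of which 108 had no FLI1. In folds the medians lay close together, at 4.95 and 5.05 for members and 5.25 and 5.26 for distal regions with FLI1.

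**Figure D1:**
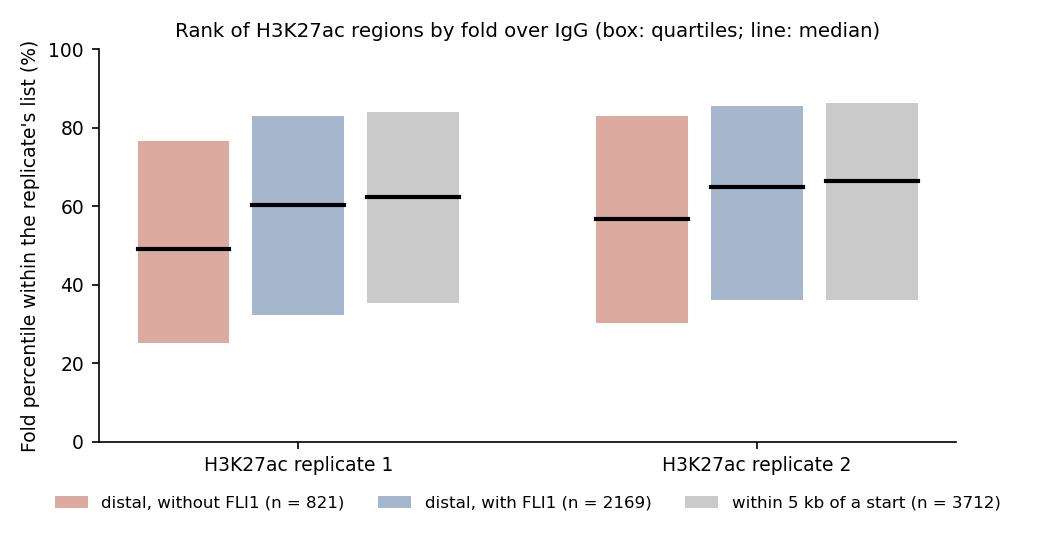
Fold percentile of H3K27ac regions within the list of replicate 1 and of replicate 2 (y axis, percent), for members (red), distal regions with FLI1 (blue) and regions within 5 kb of a start (grey). Boxes run from the first to the third quartile and the line is the median. The members' medians, 49.0 and 56.6, are the lowest in both replicates, and the boxes overlap widely.

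The share of distal regions that had no FLI1 fell as the H3K27ac signal rose. With the regions cut into 5 equal parts by mean fold percentile, in the lowest part 35.3% had none (211 of 598), and in the highest 22.7% (136 of 598). By width it fell from 33.2% in the narrowest of 5 parts to 20.1% in the widest. The members were also narrower, with a median of 488 bp against 586 bp for distal regions with FLI1. A wider region covers more bases and so has more room for FLI1 within 1 kb. The values by width therefore come in part from the rule. The part of width in the values by fold was not tested.

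The 2 replicates ranked the members differently. Across the 821 members the Spearman coefficient between their percentiles was 0.183, and it was 0.152 across the distal regions with FLI1. These coefficients are across regions that share a library, and describe the lists. Members that overlap the same replicate 1 region also share its percentile there. The median absolute difference between the replicates was 26.3 percentile points, and 31 members (3.78%) lay over the percentile of 90 in both. The order of single members below the strongest few is therefore not a stable one in these data.

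Few fragments stood behind each region. Solving each fold and p for whole fragments gave a median of 17.0 fragments at the members' summits in each replicate, the same as the 17.0 of distal regions with FLI1 in replicate 2 and close to their 18.0 in replicate 1. The weakest regions in the FLI1 lists had 8, 7, 6 and 8 fragments. These counts rest on an assumed formula and on a limited range for the factor that scales each library's fragments. More fragments with a smaller factor give the same fold and p. A site with fewer fragments than these would be absent from those lists, so no FLI1 here means none listed at this depth. Of 5979 distal regions of replicate 2 without support in replicate 1, 41.9% had no FLI1, above the 27.5% of the reproducible ones. Replicate 2 alone gave 3326 members and replicate 1 alone 1576, in place of 821.

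The FLI1 lists differed in how many distal H3K27ac regions they covered. Set A replicates 1 and 2 had a region within 1 kb of 55.5% and 58.5% of the 2990, and set B replicates 1 and 2 of 56.2% and 49.5%. Of all 17366 H3K27ac regions of replicate 2 the 4 lists covered 54.5%, 57.5%, 58.8% and 53.6%. The members are at 0 in each list because the rule took them so. Of the others, 1126 had FLI1 in 4 lists and 342 in 1 list, 361 in set A alone and 267 in set B alone. Leaving out 1 FLI1 list at a time gave between 868 and 931 members.

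Most members were not far from FLI1. The median distance to the nearest region of any list was 9040 bp, with 126 members (15.3%) between 1 and 2 kb and 72 (8.77%) over 50 kb. Measured to each list alone the medians were 15.2 and 13.4 kb in set A and 12 and 14.2 kb in set B. Regions just inside and just outside the limit looked alike. The 5 distal regions nearest to 1 kb on the inside, at 985 to 995 bp, had folds of 3.59 to 7.41 in replicate 2, and the 5 on the outside, at 1016 to 1036 bp, had 4.45 to 8.28. At the other limit, the 5 members just over 5 kb from a start had folds of 3.92 to 8.91 in replicate 2, and the 5 regions without FLI1 just within it had 3.99 to 5.66.

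**Figure D2:**
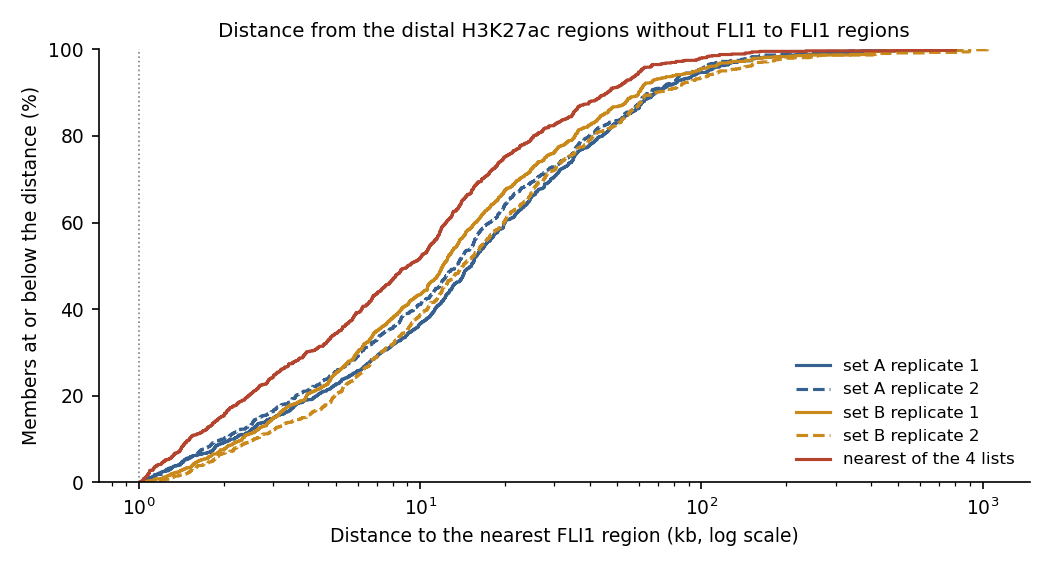
Cumulative share of the 821 members (y axis, percent) by distance to the nearest FLI1 region (x axis, kb, log scale), for each FLI1 list (blue, set A; orange, set B; solid, replicate 1; dashed, replicate 2) and for the nearest of the 4 (red). The dotted line is the 1 kb limit of the rule. The 4 lists run close together, with medians between 12 and 15.2 kb.

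Members lay in gene bodies more often than the other distal regions. The summit was in a protein-coding intron in 624 of 821 (76.0%, interval 73.0 to 78.8), against 57.4% (55.3 to 59.4) of distal regions with FLI1. Protein-coding introns make up 38.6% of the hg38 bases over 5 kb from a start. Between genes lay 8.16% of members, 21.1% of distal regions with FLI1 and 41.5% of those bases. Exons held 5.48% of members and 2.95% of distal regions with FLI1. The intervals of members and distal regions with FLI1 did not overlap for introns, for exons or for the space between genes.

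**Figure D3:**
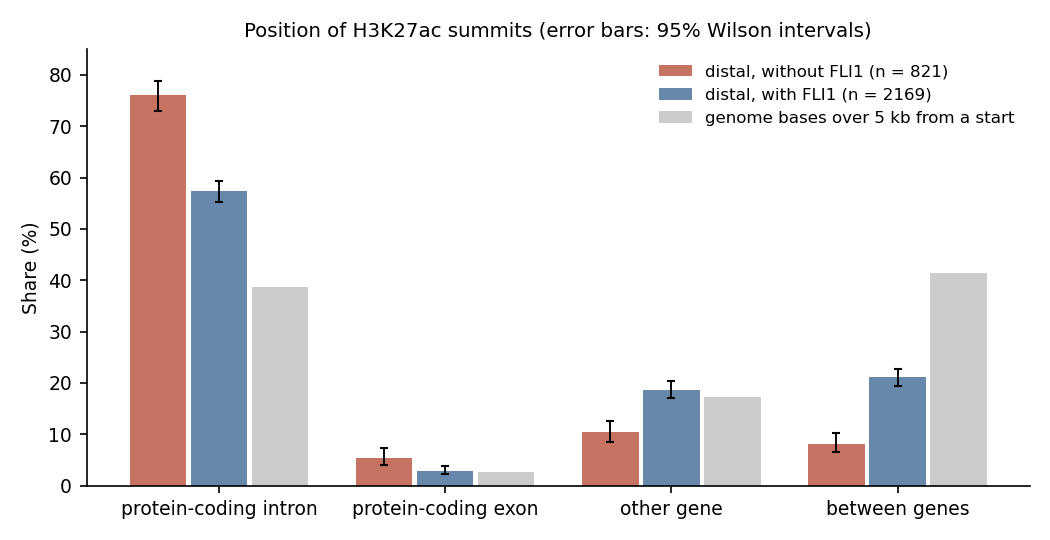
Share of H3K27ac summits (y axis, percent) in protein-coding introns, protein-coding exons, other genes and between genes, for members (red) and distal regions with FLI1 (blue), with 95% Wilson intervals. Grey bars give the share of genome bases over 5 kb from a protein-coding start. Introns hold 76.0% of members, 57.4% of distal regions with FLI1 and 38.6% of the bases.

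Members were closer to starts within the distal range, with a median of 21741 bp against 32991 bp. Over 100 kb from any protein-coding start lay 10.7% of members and 18.8% of distal regions with FLI1. A lncRNA transcript start lay within 1 kb of 26 members (3.17%) and of 8.58% of distal regions with FLI1. Transcripts of protein-coding genes that are themselves not annotated as protein-coding started within 5 kb of some members, and counting those as starts too left 697.

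Members and distal regions with FLI1 lay in genes with H3K27ac at the start in like shares. Of the 668 members in a named protein-coding gene, 222 (33.2%) had a host with reproducible H3K27ac within 1 kb of a start, against 32.9% for distal regions with FLI1 and 13.3% of all protein-coding genes. FLI1 in all 4 lists lay at the host's start for 62.6% of members and 66.5% of distal regions with FLI1, against 38.0% of all genes. The shares for members and distal regions are shares of regions, so a gene holding several regions counts for each of them. Those for all genes are shares of genes, which were not matched to the hosts in length or number of starts. The part of these differences in the contrast with all genes was not tested. Members thus often lay in a gene with FLI1 at its start while the region itself had none. In the first 20% of the host's length lay 22.0% of members and 21.2% of distal regions with FLI1.

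The 668 members fell in 476 genes, of which 358 held 1. The 9 genes with at least 5 were picked out after their values were seen. SHB, an adaptor downstream of tyrosine kinases, held 10. KIRREL1 held 8, and IGF1R, the insulin-like growth factor receptor on which many Ewing sarcoma lines depend, held 7. RXRA, a nuclear receptor partner, and ZFHX3, a zinc finger homeobox factor, held 6 each. ASAP1, B4GALT5, MACF1 and VAV2 held 5 each. Several of these genes also held distal regions with FLI1, 12 in SHB, 14 in IGF1R and 4 in KIRREL1, whereas MACF1 held 0. Of all distal regions 27.5% were members. The counts were not adjusted for gene length, which ran from 80.9 kb in B4GALT5 to 1110 kb in ZFHX3 and was 316 kb in IGF1R. Members of a gene need not be separate in replicate 1. In MACF1, chr1:39173415-39173822 and chr1:39174617-39174954 carry the same replicate 1 fold, 5.89, as does chr1:39174027-39174324 between them.

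Joined at 10 kb or less, 587 members stood alone and 234 formed 100 groups, 84 of them pairs. Neighbours in a group can overlap the same replicate 1 region. One of the 2 largest groups, 7 members over 25.8 kb at chr9:38007022-38032851, lay in SHB. Its folds ran from 4.16 to 7.41 in replicate 1 and from 4.16 to 7.63 in replicate 2, and its strongest member was chr9:38018951-38020920. Within 10 kb of this group lay 7 distal regions with FLI1, in the same stretch of the gene. Its members were between 1213 and 7798 bp from FLI1.

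Smaller groups differed in how much FLI1 surrounded them, and of 6 groups of 4 the longest is given. In B4GALT5, a galactosyltransferase of glycolipid synthesis, 5 members at chr20:49678498-49707176 had folds of 3.98 to 6.03 in replicate 1 and 5.18 to 6.87 in replicate 2, with 2 distal regions with FLI1 within 10 kb. The 5 members at chr16:73025936-73042836 in ZFHX3 had folds of 5.25 to 6.58 and 4.11 to 8.50, with 3 such regions. In TMEM245, 4 members at chr9:109098220-109113366 had folds of 4.08 to 8.16 and 3.74 to 6.21. That group had no distal region with FLI1 within 10 kb, and its members lay 6255 to 20338 bp from FLI1.

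The other group of 7 lay in repeated sequence. At chr5:34178523-34196429, in a gene that is not protein-coding and with C1QTNF3 the nearest protein-coding start, the members' summit sequences occurred between 2 and 35 times in hg38. The strongest, chr5:34178523-34178780, had folds of 8.60 and 7.75 with 72 and 59 fragments, number 6 by rank of all members. Its 6 neighbours had folds of 2.48 to 5.23 in replicate 1 and 2.43 to 4.17 in replicate 2, while their fragments ran from 36 to 92 and from 38 to 74. All had more fragments than the members' median of 17.0, and their folds were below the members' medians of 4.95 and 5.05 but for 5.23 in replicate 1 at chr5:34196194-34196429. The part of repeated sequence in these values was not tested.

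In all, 37 members (4.51%) had a summit sequence found more than once, by at least 3 of 5 stretches of 31 bases, against 4.56% of distal regions with FLI1. The region nearest UPK3BL1, chr7:102630605-102631032, number 10 by rank with folds of 8.08 and 7.13, was one of them, with 3 copies. Leaving all 37 out left 784 members, of which 77.2% lay in introns.

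Runs of GGAA, the repeat the fusion is known to bind, were about as rare around members as near starts. A run of at least 4 GGAA units lay in the region or within 1 kb of it in 5 members (0.609%) and in 145 distal regions with FLI1 (6.69%). Runs of at least 6 units lay by 0 members, where 3 counts of the 821 would be 0.365% and the Wilson upper limit is 0.466%, and by 123 distal regions with FLI1 (5.67%). For regions within 5 kb of a start, the share with at least 4 units was 0.700%. Leaving out regions near FLI1 favours a lower share in members than in distal regions with FLI1. No genome share was taken for a region with 1 kb around it. In the 300 bp windows, runs of at least 4 units lay in 0 members and 0.138% of distal regions with FLI1, against 0.135% of genome tiles. The 5 members, named here after their values were seen, lay nearest to KLF4, FAM174B, OSBPL9, GRHL2 and RNF213. Their runs had 4 or 5 units and they stood between 5.82 and 98.3 kb from FLI1.

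The ETS core, the letters bound by many ETS factors, lay within the 300 bp window of 5 members (0.609%, interval 0.260 to 1.42). It lay in 1.61% (1.16 to 2.24) of distal regions with FLI1, 4.18% of regions near starts and 0.696% of 300 bp tiles of the genome. The members' share lay below that of distal regions with FLI1, with intervals that overlap, and near that of the genome. Besides the RXRA region these were members nearest to B4GALT5, ANKRD40CL, SP1 and GRK5, named after their values were seen.

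AP-1, the dimer of FOS and JUN proteins, had its letters in the window of 120 members (14.6%, interval 12.4 to 17.2). The share was 12.7% (11.4 to 14.2) in distal regions with FLI1, 7.41% (6.61 to 8.30) near starts and 9.15% in the genome's tiles. AP-1 letters were thus more frequent in members than near starts or in the genome, while the intervals of the 2 distal groups overlapped. Matches were densest at the members' replicate 2 summits, with 0.554 per kb within 200 bp, and ran between 0.280 and 0.387 per kb from 600 to 2000 bp. In distal regions with FLI1 the density within 200 bp was 0.512 per kb. The members' summits in the 2 replicates lay a median of 205 bp apart, so the window often leaves out the replicate 1 summit. Anywhere in the region, AP-1 letters lay in 25.5% of members, 26.6% of distal regions with FLI1 and 17.1% of regions near starts. Those regions differ in width.

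Of the 24 motifs searched on both strands, 5 others had the highest ratio of the members' share to the genome's. The genome's tiles had a GC content of 40.9%, below the median of 45.0% in members' windows. The ratios were not adjusted for GC, and its part in them was not tested. The EBF letters lay in 5.72% of members against 2.40% of tiles, a ratio of 2.38, and in 4.89% of distal regions with FLI1. The cyclic AMP response element had a ratio of 2.32 but lay in 2 members, nearest SPIDR and IGF2R. Runs of at least 10 CA units lay in 1.22% of members and 0.507% of distal regions with FLI1, with intervals of 0.663 to 2.23 and 0.283 to 0.906. The E-box CAGCTG lay in 16.1% and 15.9%, and the SP and KLF letters in 2.44% and 2.31%. For each of these 5 the intervals of the 2 distal groups overlapped.

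One E-box went the other way. Of the 24 motifs, it and those that follow here were picked out after their values were seen. With so many searched, intervals that stand apart are no test of a difference. CAGATG lay in 16.4% of members (14.1 to 19.1), 21.1% of distal regions with FLI1 (19.4 to 22.9) and 18.3% of tiles, and the intervals of the 2 distal groups did not overlap. The SOX letters CATTGTT lay in 3.53% of members, 5.53% of distal regions with FLI1 and 5.96% of tiles. The intervals of the 2 distal groups, 2.47 to 5.03 and 4.65 to 6.58, overlapped. TEAD letters ACATTCC lay in 5.24% and 5.21%, against 4.84% of tiles. RUNX letters TGTGGTT lay in 5.97% and 5.62%, against 5.67% of tiles. The TEAD and RUNX shares thus stood near those of the genome in both groups. The windows' GC content did not separate the groups, with medians of 45.0% in members and 44.7% in distal regions with FLI1, but it was 50.7% near starts.

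**Figure D4:**
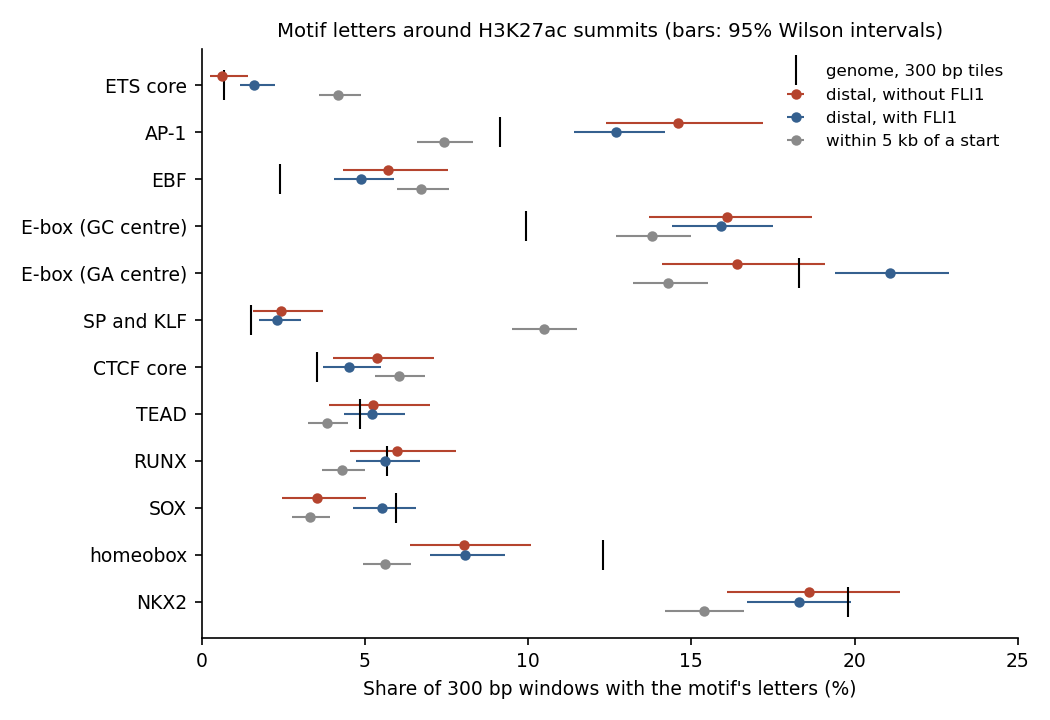
Share of 300 bp windows around H3K27ac summits that hold each motif's letters on either strand (x axis, percent), for members (red), distal regions with FLI1 (blue) and regions within 5 kb of a start (grey), with 95% Wilson intervals. Black ticks give the share of 300 bp tiles of the genome, which are not matched for GC content. AP-1 letters lie in 14.6% of members, above the 9.15% of tiles, and ETS core letters in 0.609%, near the 0.696% of tiles.

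The members lay almost wholly outside the repressive marks, which were mapped in set B. No member shared a base with a region of either H3K27me3 list, where 3 counts of the 821 would be 0.365% and the Wilson upper limit is 0.466%. Over all 17366 H3K27ac regions of replicate 2 the shares were 0.0115% and 0.00576%, so an absence among members is not set apart from that background. H3K9me3, a mark of constitutive heterochromatin, shared a base with 1 member in replicate 1 (0.122%) and 2 in replicate 2 (0.244%), against 0.173% and 0.132% of all H3K27ac regions. These were a region nearest SOX13, at chr1:203985695-203986136, in both replicates and one in PHF14 in replicate 2, named after their values were seen.

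Counting a wider stretch around the regions gave more overlap with H3K9me3. An H3K9me3 region lay within 1 kb of 8 members (0.974%, interval 0.495 to 1.91) in replicate 1 and 6 (0.731%, 0.335 to 1.59) in replicate 2. For distal regions with FLI1 the shares were 3.23% (2.56 to 4.06) and 1.57% (1.12 to 2.18). The intervals were apart in replicate 1 and overlapped in replicate 2. Near starts the shares were 0.404% and 0.108%. H3K27me3 lay within 1 kb of 0 members in both replicates and of 2 and 1 distal regions with FLI1.

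None of the 20 genes listed as activated by the fusion had a start nearest to a member, whereas 10 of them were nearest to a distal region with FLI1. Over all 19618 protein-coding genes the shares were 3.06% and 5.82%. The 6 core regulatory factors of Ewing lines gave 0 and 4 in the same way. For lists this short, a count of 0 members is near the 3.06% share and does not set these genes apart. Leaving out regions near FLI1 also favours a contrast of this kind for targets of the fusion. The lists were chosen with earlier results in view, so these counts are descriptions.

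Genes tied to the mesenchymal, AP-1 and YAP programmes had some members near them. Of the 13 YAP and TEAD pathway genes, 4 (30.8%) were nearest to a member and 7 (53.8%) to a distal region with FLI1. Over all protein-coding genes these shares were 3.06% and 5.82%, which stand beside each list below too. All protein-coding genes were not matched to this or the other lists in length or in distance to neighbouring genes. The part of these in the differences was not tested. In YAP1, the pathway's coactivator, chr11:102226063-102226493 had folds of 5.26 in replicate 1 and 7.12 in replicate 2. Its paralogue WWTR1 had a member with folds of 4.56 and 4.84. For the DNA-binding partners TEAD1 and TEAD3 the folds were 4.56 and 4.32 and 4.18 and 5.66, with 2 copies of the TEAD1 summit sequence. The 4 regions were intronic and lay between 1.90 and 5.55 kb from FLI1.

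Of the 12 AP-1 and related genes, FOSL2 and JUNB (16.7%) were nearest to members, and 2 genes (16.7%) to a distal region with FLI1. A region in BABAM2, 123 kb from the start of FOSL2, a FOS family member, had folds of 4.84 and 5.05. JUNB had 2 members in the neighbouring gene HOOK2, 6.33 and 5.12 kb from its start, with folds of 4.86 and 3.96 and of 4.21 and 5.79. Their fold percentiles were 44.4, 46.0 and 17.0 in replicate 1 and 56.6, 10.2 and 77.8 in replicate 2, so the replicates did not rank them alike.

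Among the 20 fusion-repressed and mesenchymal genes, ZEB2 and COL3A1 were nearest to members, and 5 genes were nearest to a distal region with FLI1. The intronic region in ZEB2, a repressor of epithelial genes, had folds of 6.56 and 5.20, and the region 185 kb from COL3A1, a fibrillar collagen gene, 4.72 and 4.50. Of 20 neural crest and neural factors, 5 were nearest to a distal region with FLI1. Only TFAP2A was nearest to a member, at 790 kb, with folds of 3.86 and 4.50.

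Of 11 bHLH and RUNX genes, 2 (18.2%) were nearest to a member and 2 (18.2%) to a distal region with FLI1. The region 17.2 kb from ID3, an inhibitor of bHLH factors, had folds of 4.65 and 6.10, and one in SUPT3H, 78.8 kb from RUNX2, a regulator of bone formation, had 4.27 and 5.13. Chromatin genes nearest to a member included 2 with opposed enzymatic roles. In CREBBP, which encodes the acetyltransferase CBP, the folds were 4.11 and 4.29, and in HDAC1, a deacetylase, 4.64 and 6.06. The CREBBP region lay 47.8 kb and the HDAC1 region 18.4 kb from FLI1.

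Of 6 genes known as markers of Ewing sarcoma, 1 had H3K27ac near its start. Over all protein-coding genes, 13.3% had reproducible H3K27ac within 1 kb of a start, a narrower window. Within 5 kb of the starts of NR0B1, NKX2-2, CD99, PRKCB and BCL11B neither replicate listed H3K27ac, and at STEAP1 each listed 1 region. FLI1 was listed by all 4 libraries at each of these genes but CD99, where none listed it. Of 6 markers of other cells, KRT18 alone had H3K27ac, with 2 and 3 regions, and PTPRC, CD3E, PECAM1, EPCAM and COL1A1 had none in either list. FLI1 was listed by 4 libraries at PECAM1, KRT18 and COL1A1 and by 3 at EPCAM too, so it did not separate the 2 kinds of marker. No member was nearest to any of these 12 starts.

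Chromosome 9 had the highest share of distal H3K27ac regions without FLI1, 77 of 182 (42.3%, interval 35.4 to 49.6). On the other 22 chromosomes the share ran from 18.9% on chromosome 10 to 36.7% on chromosome 17, with a median of 27.1%. The SHB, TMEM245, RXRA and VAV2 regions are all on chromosome 9. FLI1 was listed within 1 kb of a start for 48.0%, 47.0%, 57.0% and 51.7% of the genes of chromosome 9, near the medians over chromosomes of 46.6%, 45.8%, 56.4% and 52.6%. Without chromosome 9, 744 members remained, with 74.9% in introns.

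**Figure D5:**
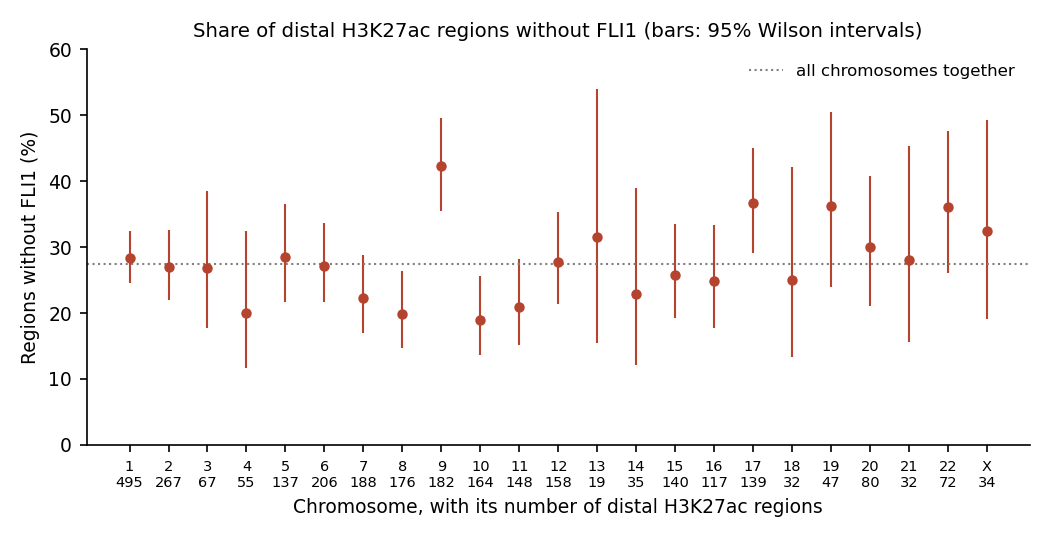
Share of distal H3K27ac regions without FLI1 (y axis, percent) on each chromosome (x axis, with the number of distal regions below it), with 95% Wilson intervals. The dotted line is the share over all chromosomes, 27.5%. Chromosome 9, at 42.3%, is the highest, and chromosomes with few regions have wide intervals.

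The number of members differed between chromosomes, as did the share of genes with H3K27ac at the start. Chromosome 1 had 140 members (0.562 per Mb) and chromosome 13 had 6 (0.0525 per Mb). H3K27ac was listed within 1 kb of a start for 28.4% and 33.4% of the genes of chromosome 1 in replicates 1 and 2, and for 6.25% and 9.38% of those of chromosome 13. The densest in members was chromosome 17 (0.613 per Mb), with 19.7% and 25.7%, so the order of the 2 measures was not the same. The number of copies of each chromosome is not given by peak lists, and its part in these values was not tested.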

How the data were processed

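Peaks of 10 antibody libraries were used, and the authors called each list singly, with the IgG library that shares its set letter and number as control, per the file headers and names. The submitters' processing notes name cutadapt 4.4, Bowtie2, Picard 2.17.11 and MACS2 2.1.1 and the build hg38, and all rows lay within hg38 chromosome lengths. The deposited values are a fold (ratio) over IgG, a −log10 p-value and a −log10 q-value, and the deposited score of each row was not used. Read totals are not given in the sources used here.

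Rows of a list that shared a base were joined into a region that took the values of its most significant row, on chromosomes 1 to 22 and X. Fragments at summits were solved from fold and p of regions with a −log10 p under 40, assuming a Poisson p and a pseudocount of 1, which the files do not state. Motifs were searched on both strands in 300 bp around replicate 2 summits, sequence copies by 5 stretches of 31 bases. Interval, motif, copy and fragment steps, tested on simulated data, were right in 100.0% of cases. The fragment simulations used the same assumed formula, so they check the solving and cannot check the assumption. 1 gene of the chromatin list, and that list's count, are not reported here. The members and gene lists were chosen with earlier results of these data known. Named were the 10 members with the highest mean fold percentile, the 5 groups with the most members (the longer first among ties) and list genes nearest to a member. Alternatives varied distances, thresholds, overlap and libraries. Python 3.11.15, numpy 2.4.6, pandas 2.3.3, scipy 1.17.1, pysam 0.24.0 and samtools 1.23.1 were used. IgG libraries, reads and spike-in were not analysed here.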

Additional observations from a re-analysis of the deposited data

How the results depend on the processing

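The count of 821 members became 539 with no FLI1 within 5 kb, 362 with 50% reciprocal overlap between replicates and 108 with a −log10 q of at least 5 in both lists; leaving out 1 library gave 868 to 3326. The rank difference of -9.90 points reversed to 0.253 under the same −log10 q limit, which by construction keeps only the strongest regions of both groups. It was -6.39 with reciprocal overlap, -6.23 with the FLI1 lists of set B alone, and -10.2 to -8.20 with 1 library left out. The intron share of 76.0% was 70.4% under the −log10 q limit, 72.6% with set B alone, and 74.6% to 76.4% with 1 library left out. The AP-1 share of 14.6% was 9.74% in windows of 200 bp and 26.7% in windows of 600 bp, as shorter and longer windows must give, and 13.2% to 14.9% with 1 library left out. The mean H3K9me3 share of 0.183% was 0.853% within 1 kb, 0.278% with no FLI1 within 5 kb, 0.926% under the −log10 q limit, 0.414% with reciprocal overlap and 0.296% with set B alone, each from a few regions, and 0.127% to 0.225% with 1 library left out. The H3K27me3 share was 0% to 0.0301% with 1 library left out. The causes of the other changes were not tested. Depth limits the absence of FLI1: the weakest listed FLI1 regions had 6 to 8 fragments as solved under the assumed formula. The FLI1 lists of 1 set alone, starts of every transcript of protein-coding genes, and leaving out repeated sequence or chromosome 9 were added after the data were seen. No paired analysis was possible because the results come from no test between groups of samples.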

Other observations

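Genes holding 4 members each were looked at after their values were seen. GLI2, a transcription factor of Hedgehog signalling, held 4 members with folds of 3.99 to 4.93 in replicate 1 and 3.76 to 7.64 in replicate 2, and 3 distal regions with FLI1. TCF7L1, a transcription factor of WNT signalling, held 4 with folds of 3.99 to 6.59 and 4.62 to 6.43, beside 3 distal regions with FLI1. In ATXN1, a chromatin-bound corepressor, the 4 members had folds of 4.86 to 6.44 and 4.00 to 7.83, and in RELT, a receptor of the tumour necrosis factor family, 3.99 to 8.01 and 4.74 to 7.41. Neither ATXN1 nor RELT held a distal region with FLI1. The lengths of the genes named here ran from 21.1 kb in RELT to 462 kb in ATXN1, and the counts were not adjusted for them.

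Density of FLI1 around groups varied. A group of 4 members at chr22:46062051-46075833, nearest to PPARA and WNT7B, had 10 distal H3K27ac regions with FLI1 within 10 kb, and its folds were 4.85 to 9.91 in replicate 1 and 4.82 to 6.54 in replicate 2. Its members lay 1090 to 2227 bp from FLI1, so a limit of 5 kb in place of 1 kb would leave all of them out. A group of 4 in TBCD, a tubulin cofactor, at chr17:82865852-82876491, had 0 such regions, with folds of 4.95 to 5.94 and 4.29 to 7.10.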
